A study of Mus musculus with 50 samples.

Results

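The 9 genes described here are 4 pairs that lie on opposite strands of the same DNA, together with Pkm2. In each pair at least 1 gene belongs to glucose transport, glycolysis or their control: Gm12868 lies opposite Slc2a1, Gm17327 opposite Gpi1, Csnk1d opposite Slc16a3 and Gm15441 opposite Txnip. They were chosen by name out of 37310 annotated genes, with their counts in these same 6 libraries and the resulting differences between groups already known. Their differences between groups are therefore given as values with standard errors and without p-values. Of the 9, 8 were among the 5034 genes with enough counts to be tested, and Txnip, at 1 to 5 counts per library, was not.

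RNA was sequenced from mouse embryonic stem (ES) cells of line J1, which derives from strain 129S4/SvJae. The groups were KO1 and KO2, labelled with the genotype NSD1-/-, and wild type (WT), with 2 libraries each. All were grown in DMEM with 15% fetal bovine serum, sodium pyruvate and the cytokine LIF on gelatin. NSD1 is a methyltransferase of histone H3 lysine 36. The labels do not state how KO1 and KO2 were made, whether each is a single clone, or whether the libraries of a group are separate cultures, so errors and p-values reflect no more than how far these libraries differ, and that spread may be technical. The series holds 50 samples, and the other 44, from chromatin assays, were not analysed here.

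Glucose enters most cells through the facilitative transporter GLUT1, the product of Slc2a1. Gpi1 encodes glucose-6-phosphate isomerase, which converts glucose 6-phosphate to fructose 6-phosphate near the start of glycolysis, and Pkm2 is the older name of the muscle-type pyruvate kinase gene, whose enzyme makes pyruvate at its end. Slc16a3 encodes MCT4, a monocarboxylate transporter that exports lactate from glycolytic cells. Txnip encodes an arrestin-family protein that binds thioredoxin and limits glucose uptake, and its transcription is induced by glucose through the factors MondoA and ChREBP with their partner Mlx. Mouse ES cells use both glycolysis and mitochondrial respiration.

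The counts were kept only for fragments whose first read lay on the strand of the counted gene, and the sources used here do not state whether the library kit marks strand. Apart from AY036118, a pseudogene that took 32.3 to 37.2% of the counts of each library, 88.6 to 90.6% of the counts fell on the 5431 genes that share exon sequence with a gene on the other strand. Slc2a1 had 5 to 12 counts per library while Gm12868 had 759 to 1061. The counts were therefore taken to come from the other strand, so that the values at Gm12868, Gm17327, Csnk1d and Gm15441 were read as fragments of Slc2a1, Gpi1, Slc16a3 and Txnip. The counts alone do not separate this from transcription of the counted gene itself, and each value below names the gene at which it was counted and the gene opposite it.

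Counts were taken over all exons of the counted gene, and the stretches where the genes of a pair share exon sequence are a minor part of these, 14.0% of the exon bases of Gm17327, 14.2% of Csnk1d, 25.2% of Gm12868 and 36.2% of Gm15441. Coordinates are those of mm9. Gm15441 (chromosome 3, 96359688 to 96370724, minus strand, a long intergenic noncoding RNA) spans the whole of Txnip (96361880 to 96365806, plus strand) and shares 606 exon bases with it, 441 in exon 1 and 165 in exon 5 of the 8 exons of transcript Txnip-001. Of the exon 1 stretch, 162 bases are coding and 279 are untranslated, and the exon 5 stretch is coding throughout. Gm17327 (chromosome 7, 35009774 to 35015255, plus strand, also a long intergenic noncoding RNA) lies wholly within the span of Gpi1 (34987141 to 35015308, minus strand). It shares 741 exon bases with Gpi1, in exons 1, 2 and 4 of the 18 exons of Gpi1-001 and in a stretch annotated only in another transcript, and 4543 of its exon bases lie in Gpi1 introns. The following sequences are shown because they are from coding exons of Txnip and Gpi1 that share sequence with counted exons of Gm15441 and Gm17327. They are on the strand of Txnip and of Gpi1. The capitals mark bases that lie in exons of both genes of the pair, and 30 flanking bases stand on each side. The Gpi1 flanks also lie within an exon of Gm17327, and the Txnip capitals are part of a longer stretch of Txnip exon sequence.
Txnip exon 5, mm9 chr3:96363571-96363795, plus strand: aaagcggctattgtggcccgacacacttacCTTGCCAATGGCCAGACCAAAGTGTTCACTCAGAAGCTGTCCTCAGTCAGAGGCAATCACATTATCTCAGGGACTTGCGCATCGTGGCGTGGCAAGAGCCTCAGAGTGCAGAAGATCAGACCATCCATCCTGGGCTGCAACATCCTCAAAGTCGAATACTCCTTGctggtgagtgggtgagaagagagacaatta
Gpi1 exon 4, mm9 chr7:35012107-35012286, minus strand: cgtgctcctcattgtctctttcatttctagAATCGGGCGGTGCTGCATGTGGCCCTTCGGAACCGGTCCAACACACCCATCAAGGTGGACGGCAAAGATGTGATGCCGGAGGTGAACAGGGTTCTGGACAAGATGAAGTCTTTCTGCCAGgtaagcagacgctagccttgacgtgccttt

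The Txnip promoter is shown because it also lies inside the span of Gm15441 and holds the letters to which Mondo factors with Mlx are known to bind in this gene, the carbohydrate response element. The 250 bases before the annotated start are from RefSeq (GRCm38.p6), and the capitals mark CACGAG and the letters of the CCAAT and TATA boxes (TATAA for the last) on either strand.
Txnip promoter, GRCm38 chr3:96557707-96557956, plus strand: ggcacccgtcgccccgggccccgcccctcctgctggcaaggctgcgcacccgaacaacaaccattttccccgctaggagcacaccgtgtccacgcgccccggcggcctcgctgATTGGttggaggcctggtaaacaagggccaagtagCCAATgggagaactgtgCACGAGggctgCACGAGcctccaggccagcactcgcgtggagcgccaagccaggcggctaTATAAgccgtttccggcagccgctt
The letters CACGAG stood 85 and 74 bases before the start, separated by 5 bases. Read on both strands as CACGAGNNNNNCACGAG, this arrangement was found in 1 of 32851 mouse promoter windows (0.00304%), Txnip's own, from which the letters were taken. Single CACGAG was present in 6.47% of the windows, which ran from 250 bases before to 50 bases after each start, CCAAT in 37.4% and TATAA in 24.9%. The E-box CACGTG, present in 7.15%, was not found in the Txnip window. ACGTG, the core letters of hypoxia response elements, was present in 19.6% of windows, with 2 matches in the Slc16a3 window, 1 in the Slc2a1 window, 2 in 1 of the 2 windows of Pkm2 (Pkm in RefSeq) and none in its other window or in those of Gpi1 and Txnip. These matches describe letters only.

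The other pairs are Gm12868 with Slc2a1 and Csnk1d with Slc16a3. Gm12868 (chromosome 4, 118806354 to 118811406, minus strand, an annotated processed transcript) shares 105 coding bases with Slc2a1 (118781316 to 118809935, plus strand), all in exon 7 of the 10 exons of Slc2a1-001, and 168 more of its exon bases lie in Slc2a1 introns. Csnk1d (chromosome 11, 120819779 to 120852644, minus strand) encodes casein kinase 1 delta, a kinase best known for phosphorylating clock proteins. It meets Slc16a3 (120809794 to 120822182, plus strand) tail to tail, with 831 bases shared between the last exons. None of these bases is coding in Slc16a3-001, where 311 of them lie in the 3' untranslated region. Pkm2 (chromosome 9, 59504383 to 59527182, plus strand) has no annotated exon opposite it.

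**Figure D1:**
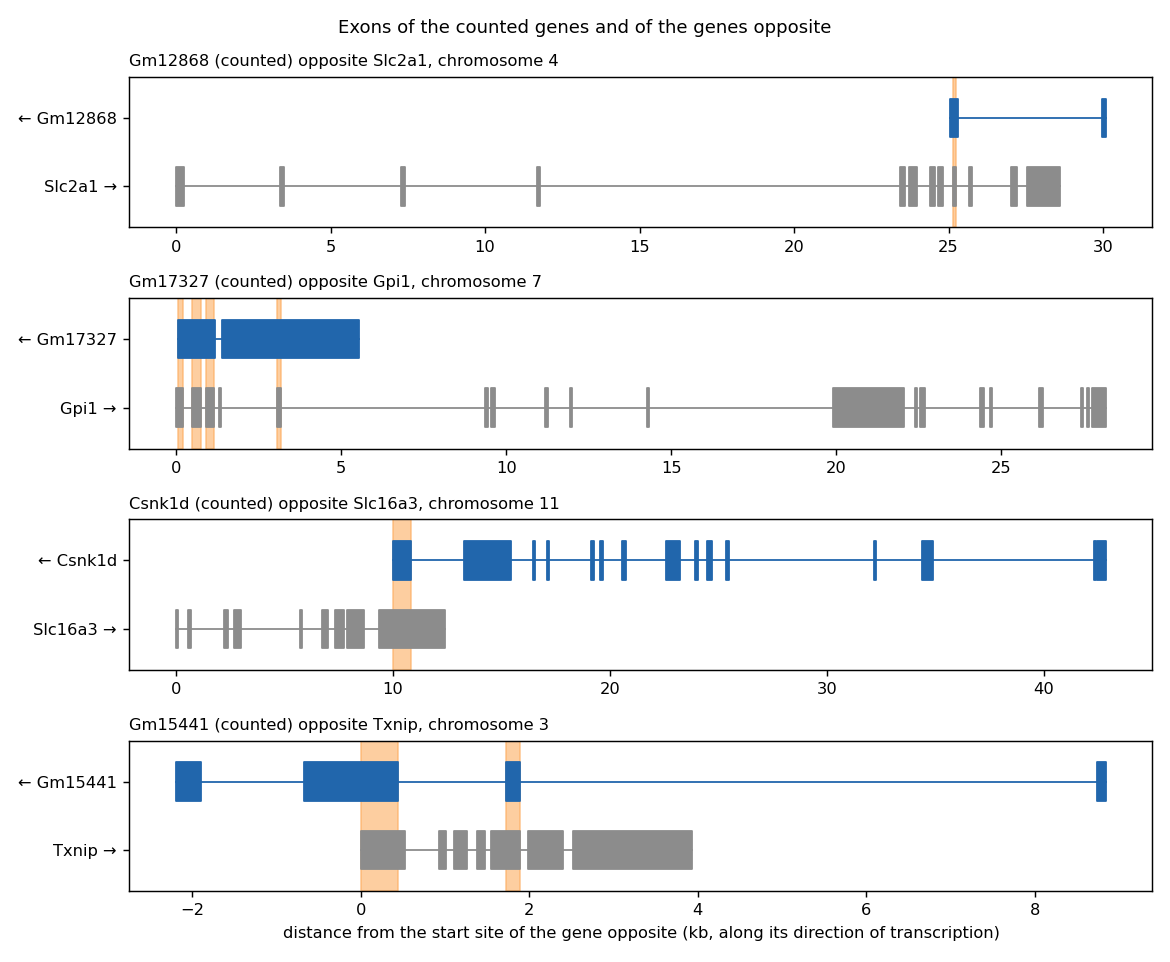
Exons of each pair drawn to scale along the locus, with the counted gene and the gene opposite it on separate lines. Positions are in kb from the start of the gene opposite, along its direction of transcription. The shared exon sequence amounts to 105 bases for Gm12868 and Slc2a1, 741 for Gm17327 and Gpi1, 831 for Csnk1d and Slc16a3 and 606 for Gm15441 and Txnip.

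Each library held between 1150089 and 1285487 counts, with a median of 23 to 27 counts at a tested gene. Library pairs within a group differed by more than counting noise (chi-square per degree of freedom of 2.15 in KO1, 1.91 in KO2 and 1.5 in WT) and less than pairs of different groups (3.88 to 7.59), so no library was counted as a duplicate. Nsd1 itself had 55 and 38 counts in KO1, 27 and 21 in KO2 and 21 and 25 in WT. Its counts were called higher in KO1 than in WT (log2 fold change 0.94 ± 0.27, edgeR adjusted p = 0.0230). They were also called higher in KO1 than in KO2 (0.89 ± 0.27, adjusted p = 0.0187), and not called in KO2 against WT (0.05 ± 0.31, adjusted p = 0.945). Nsd1 has no exon opposite it, so these counts do not check its loss. The 10 ES cell markers summed to 352 to 368 counts per library in KO1, 358 to 368 in KO2 and 339 to 360 in WT, with 0 of the 10 at 0 and none called, but by the strand reading these counts do not give the markers' own levels. By the gene opposite, 1 ES cell marker could be read: Gm13061, opposite the pluripotency gene Lin28a, had 401 and 362 counts in KO1, 417 and 372 in KO2 and 515 and 503 in WT. It fell in KO1 (log2 fold change -0.48 ± 0.09, edgeR adjusted p = 3.25e-04) and in KO2 (-0.38 ± 0.09, adjusted p = 0.00519). Of 10 fibroblast or feeder markers, which summed to 40 to 54 counts in KO1, 32 in both KO2 libraries and 30 to 34 in WT, 5 were at 0 in all libraries. The 5 counted genes opposite fibroblast markers summed to 1542 to 1573 counts in KO1, 1339 to 1510 in KO2 and 1537 to 1648 in WT, and 2 of them were called lower in KO1 and 4 in KO2. These sums are mostly Apol7d, opposite Fn1, at 1311 to 1528 counts per library and not called. Gm17329, opposite the collagen gene Col1a1, had 4 and 3 counts in KO1, 4 and 1 in KO2 and 78 and 94 in WT, a fold of 0.0402 in KO1 (adjusted p = 1.38e-10) and 0.0303 in KO2 (adjusted p = 6.19e-11). Syn3, opposite Timp3, a metalloproteinase inhibitor gene, had 16 and 19 counts in KO1, 9 and 15 in KO2 and 75 and 97 in WT, a fold of 0.195 in KO1 (adjusted p = 5.20e-08) and 0.140 in KO2 (adjusted p = 5.45e-09). These differences were larger than those of any tested member. Whether such cells had a part in the values below was not tested, and in bulk RNA fewer cells of a type cannot be told apart from less RNA per cell.

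Counts are given as CPM, counts scaled by the effective library size to a common total, with the SD over 2 libraries. A log2 fold change stands with the standard error of an edgeR quasi-likelihood fit to all 6 libraries, and a gene was called where its Benjamini-Hochberg adjusted p over the 5034 tested genes was under 0.05. Csnk1d, opposite Slc16a3, was lower in KO1 than in WT and higher in KO2. Gm15441, opposite Txnip, was lower in both lines, and Gm12868 and Gm17327, opposite Slc2a1 and Gpi1, were lower in KO1, and in KO2 their libraries overlapped with those of WT.

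Among the 8 tested members, 4 were called lower in KO1 against WT, namely Gm12868, Gm17327, Csnk1d and Gm15441. In that comparison 493 of all tested genes were called, 9.79%, of which 6.34% of tested genes lower and 3.46% higher. In KO2 against WT, Csnk1d was called higher and Gm15441 lower, where 452 genes were called, 8.98% (5.01% higher and 3.97% lower). With the lines combined against WT, Gm15441 was called lower, where 333 genes were called, 6.62% (2.72% higher and 3.89% lower). Between KO1 and KO2 the same 4 genes as in KO1 against WT were called lower in KO1, where 971 genes were called, 19.3% (7.93% higher and 11.4% lower). Groups whose libraries did not overlap in CPM made up 51.1% of tested genes in KO1 against WT, 50.6% in KO2 against WT and 58.6% in KO1 against KO2 (29.8% higher and 28.8% lower in KO1). Since the members were picked with these counts in view, nothing is read from these shares. The comparisons with WT share the WT libraries. Over the 8 tested members the median log2 fold change was -0.21 in KO1, 0.13 in KO2 and -0.36 between KO1 and KO2. Over all tested genes it was 0.00, -0.01 and 0.02. The 8 mix both genes of a pair, among them Slc2a1 and Gpi1 at low counts. For this reason and because of how the members were picked, nothing is read from these medians either.

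**Figure D2:**
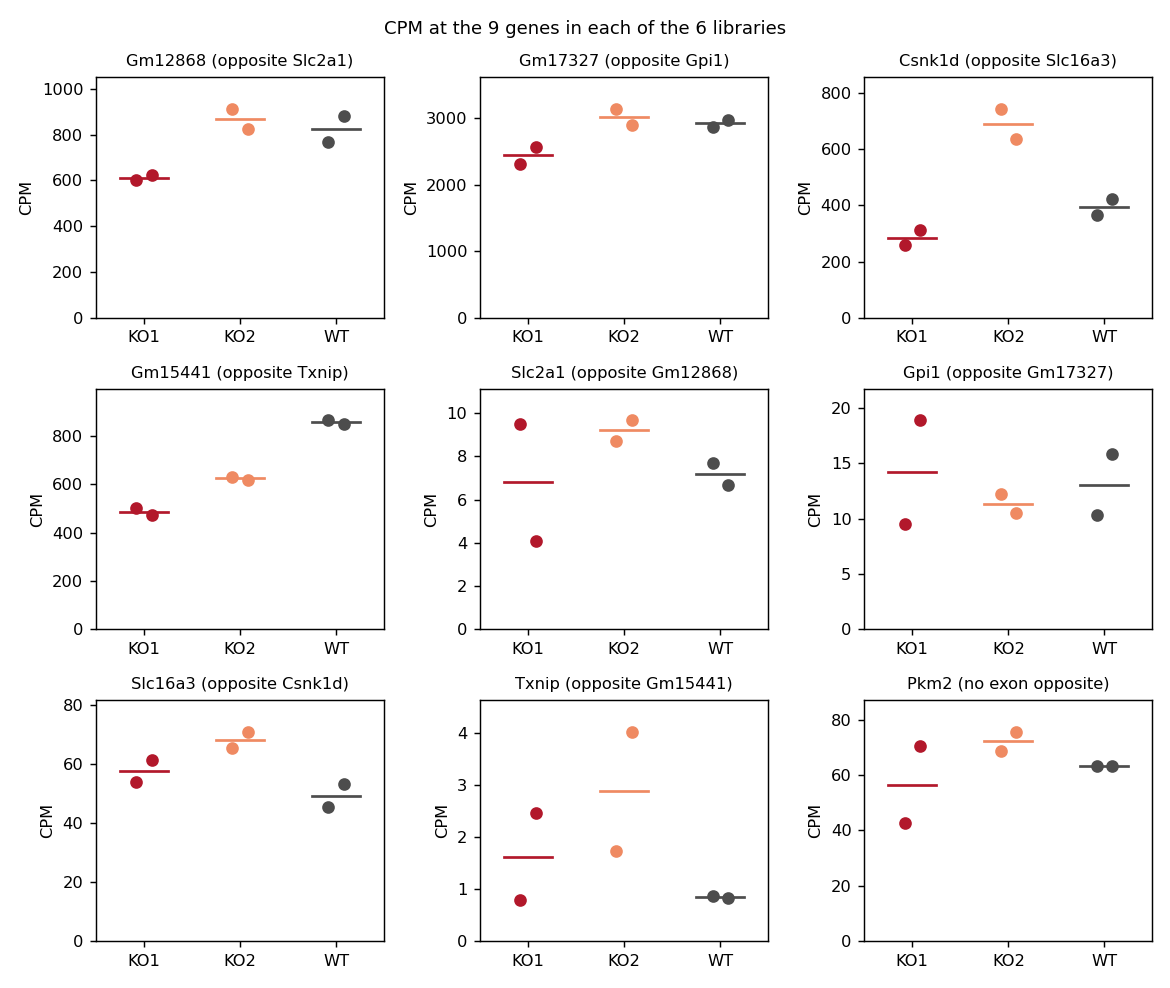
CPM of the 9 genes in each library, on separate vertical axes, for KO1, KO2 and WT from left to right. Points are libraries and the horizontal bars are means of 2. At Csnk1d the KO1 libraries lie below the WT libraries and the KO2 libraries above them, and at Gm15441 all 4 knockout libraries lie below both WT libraries.

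At the regulator locus, Gm15441, a noncoding RNA opposite the glucose-induced Txnip gene and itself known from mouse liver, had 501 and 474 CPM in KO1, 632 and 619 CPM in KO2 and 866 and 850.2 CPM in WT. The 3 groups were fully separated, with KO1 lowest, KO2 between and WT highest. The mean was 487 ± 18.7 CPM in KO1, 626 ± 9.54 CPM in KO2 and 858 ± 11.5 CPM in WT, which gave a fold of 0.568 in KO1 (log2 fold change -0.82 ± 0.07) and of 0.729 in KO2 (-0.46 ± 0.06). KO1 was also below KO2, by a log2 fold change of -0.36 ± 0.07, which was -0.22 where library totals were used without TMM. Among tested genes, 26.4% had both KO1 libraries below both WT libraries and 26% had both KO2 libraries below both WT libraries. Txnip on its own strand had 1 and 3 counts in KO1, 2 and 5 in KO2 and 1 and 1 in WT, so that Gm15441 held 153 to 1022 times as many counts as Txnip in the same library. Differences in these own-strand counts were not detectable at this depth, and by the strand reading such counts do not give the level of Txnip.

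The genes around Gm15441 lay mostly above it. All 20 tested genes within 1 Mb had a higher log2 fold change in KO1 than Gm15441, with a median of -0.03 and a range of -0.79 to 1.55, and 19 of the 20 did so in KO2, where the median was 0.00. On chromosome 3 as a whole, 2 of the 209 other tested genes (0.957%) lay below Gm15441 in KO1 and 43 (20.6%) in KO2.

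At the glucose transporter locus, Gm12868, counted opposite Slc2a1, had 600.3 and 624 CPM in KO1, 914 and 824 CPM in KO2 and 769.7 and 883 CPM in WT. Both KO1 libraries lay below both WT libraries, while the KO2 and WT libraries overlapped. The means were 612 ± 16.4 CPM in KO1, 869 ± 63.8 CPM in KO2 and 826 ± 79.9 CPM in WT. The fold was 0.740 in KO1 (log2 fold change -0.43 ± 0.07) and 1.05 in KO2 (0.07 ± 0.07), and KO1 stood below KO2 by -0.50 ± 0.07. Per 100 shared bases, Gm12868 had 723 to 1010 counts, the highest value of the 4 pairs. The value uses the counts over all its exons, of which 25.2% of bases are shared, so it is no density within the shared sequence. Part of its counts may come from its 168 bases in Slc2a1 introns or from its exon beyond the end of Slc2a1. Slc2a1 on its own strand had 9.49 and 4.10 CPM in KO1, 8.72 and 9.68 CPM in KO2 and 7.71 and 6.66 CPM in WT. At 5 to 12 counts per library its log2 fold change of -0.07 ± 0.52 in KO1 and 0.36 ± 0.49 in KO2 could not resolve a difference of the size seen at Gm12868. Without KO1 replicate 1 the KO1 value was -0.78, and without KO1 replicate 2 it was 0.40.

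At the lactate exporter locus, Csnk1d, counted opposite Slc16a3, had 259 and 312 CPM in KO1, 745 and 637 CPM in KO2 and 366 and 422 CPM in WT. The groups did not overlap, and WT lay between the knockout lines. The means were 285 ± 37.6 CPM in KO1, 691 ± 76.5 CPM in KO2 and 394 ± 39.1 CPM in WT. KO1 was at 0.723 of WT (log2 fold change -0.47 ± 0.10), KO2 at 1.75 times WT (0.81 ± 0.09) and KO1 at 0.413 of KO2 (-1.28 ± 0.09). Averaged over the lines, the log2 fold change was 0.17 ± 0.08, a value that describes neither line. Slc16a3 on its own strand, which by the same strand reading holds Csnk1d fragments, had 53.8 and 61.5 CPM in KO1, 65.4 and 71.0 CPM in KO2 and 45.4 and 53.2 CPM in WT. Both knockout lines lay above WT there, by log2 fold changes of 0.22 ± 0.19 in KO1 and 0.47 ± 0.18 in KO2, with KO1 below KO2 by -0.25 ± 0.18, and none of these was called. Between KO1 and KO2 the log2 fold change was thus -1.28 at Csnk1d and -0.25 at the gene across from it. The counts of Csnk1d were 4.81 to 11.4 times those of Slc16a3, the smallest imbalance of the 4 pairs.

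Genes across chromosome 11, which carries both genes, had higher values in KO2 than in WT. The median log2 fold change of its 560 tested genes was 0.40 in KO2 and 0.06 in KO1. Set against the other 558 tested genes there, outside the locus, Csnk1d differed from the chromosome's median by 0.41 in KO2, with 464 genes (83.2%) below it, and by -0.53 in KO1, with 41 genes (7.35%) below it. Within 1 Mb, 10 of 36 tested neighbours had a higher log2 fold change than Csnk1d in KO2, with a median of 0.53 and a range of -0.29 to 1.79. In KO1, 35 of the 36 were higher, with a median of 0.13 and a range of -1.33 to 1.88. Slc16a3, by its own counts, differed from the chromosome's median by 0.07 in KO2, with 57.5% of genes below it. In KO1 it differed by 0.16, with 64.2% below it. The part of the chromosome's shift in the values of Csnk1d and Slc16a3 was not tested.

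**Figure D3:**
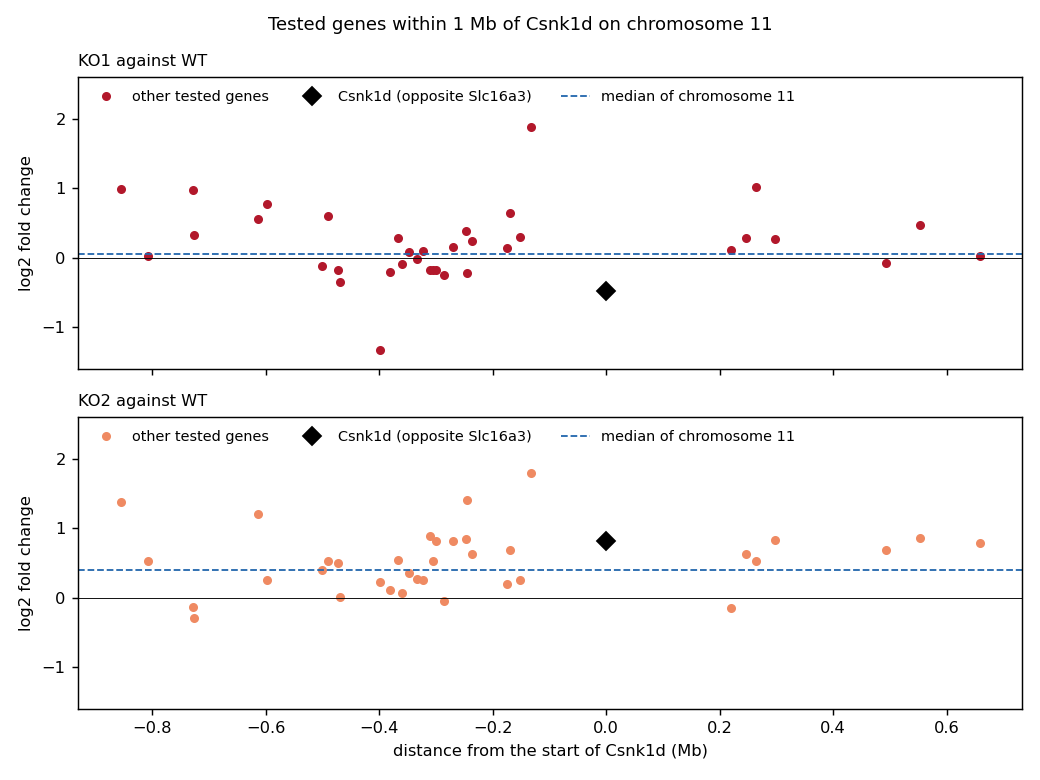
Log2 fold changes against WT of the 36 tested genes within 1 Mb of Csnk1d, by distance from it, for KO1 and KO2, with Csnk1d as a diamond and the median of all tested genes on chromosome 11 as a dashed line. In KO1 Csnk1d lies at -0.47, below the dashed line at 0.06, and in KO2 it lies at 0.81, above the dashed line at 0.40.

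At the enzyme loci the differences were smaller. Gm17327, counted opposite Gpi1, was the most abundant member, at 0.375 to 0.463% of all counts other than AY036118. It had 2313 and 2563 CPM in KO1, 3141 and 2900 CPM in KO2 and 2867 and 2966 CPM in WT. The KO1 libraries lay below the WT libraries, and the KO2 libraries overlapped with them. The means were 2438 ± 177 CPM in KO1, 3020 ± 170.4 CPM in KO2 and 2916 ± 70.2 CPM in WT, with a fold of 0.836 in KO1 (log2 fold change -0.26 ± 0.05) and a log2 fold change of 0.05 ± 0.05 in KO2 and of -0.31 ± 0.05 between KO1 and KO2. The KO1 value depends on the scaling, being -0.16 where library totals without AY036118 were used and no TMM factor, as does the value between KO1 and KO2, then -0.17. Gpi1 on its own strand had 12 and 23 counts in KO1, 14 and 13 in KO2 and 12 and 19 in WT, and all 3 groups overlapped. Glycolytic enzyme genes have processed pseudogenes in the mouse genome, so counts at Gpi1, Pkm2 and Tpi1 are uncertain where reads match such copies.

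Pkm2 had 42.7 and 70.6 CPM in KO1, 68.9 and 75.8 CPM in KO2 and 63.4 and 63.2 CPM in WT. The KO1 libraries fell on both sides of WT, and both KO2 libraries lay just above it. Its log2 fold change was -0.17 ± 0.20 in KO1 and 0.20 ± 0.19 in KO2, and it was not called in any comparison. The KO1 value turned on the library kept, at 0.17 without KO1 replicate 1 and -0.57 without KO1 replicate 2. Among tested genes, 24.6% had both KO2 libraries above both WT libraries. With no annotated exon opposite it, the counts of 54 to 94 per library leave undecided whether Pkm2 or an unannotated transcript gave rise to them.

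In KO1 the value relative to the rest of the same chromosome was -0.89 for Gm15441, -0.53 for Csnk1d, -0.46 for Gm12868 and -0.28 for Gm17327, against the median log2 fold change of the chromosome's other tested genes. In KO2 it was -0.42, 0.41, 0.12 and 0.14 for the same genes. Of these 4, Gm15441 lay furthest below its chromosome in both lines. The 8 tested genes within 1 Mb of Gm12868 were themselves lowered in KO1, with a median of -0.24 and a range of -1.19 to 0.35. Of these, 6 lay above Gm12868. The 7 tested genes within 1 Mb of Gm17327 had a KO1 median of 0.01, and 6 lay above it. The part of such local shifts in the member values was not tested.

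The genes whose profiles over the 6 libraries were most like those of Csnk1d and Gm15441, the members with the widest ranges of group means (1.28 and 0.82 on the log2 CPM scale), were found by the root mean square difference of centred log2 CPM among the 1445 genes that averaged 50 CPM or more. Closest to Csnk1d was Gm16764, opposite Nkx1-2 on chromosome 7, at a difference of 0.118, with means of 283 CPM in KO1, 693 CPM in KO2 and 431 CPM in WT. Armc7 (0.145) and Nprl3 (0.158) followed, both on chromosome 11. Their log2 fold changes were -0.20 and -0.14 in KO1 and 0.97 and 0.94 in KO2. Closest to Gm15441 was A230005M16Rik, opposite Bmyc on chromosome 2, at 0.0833, with means of 116 CPM in KO1, 165 CPM in KO2 and 225 CPM in WT. Gm16934, opposite Ccdc3 on chromosome 2 (0.0941), and Gm17080, opposite Slc29a1, a nucleoside transporter gene on chromosome 17 (0.102), came next. All 3 were lower in KO1 than in KO2 and lower in KO2 than in WT. The genes were picked for their likeness to the members, so their order of groups follows from the choice.

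To place the members within the pathway, 6 lists of genes for glucose transporters, glycolytic enzymes, lactate and pyruvate handling, regulators of glycolysis, pentose phosphate and gluconeogenesis enzymes, and casein kinases were read by the symbol of the gene opposite. Without the members, 17 counted genes lay opposite a list gene and 13 were tested. In KO1 against WT, 1 of the 13 rose and 3 fell, with a median log2 fold change of -0.07. In KO2 against WT, 1 rose and 1 fell, with a median of -0.16. With both lines together against WT, 0 rose and 1 fell, with a median of -0.14. Between KO1 and KO2, 3 were higher and 2 lower in KO1, with a median of 0.11. The medians over all tested genes lay between -0.01 and 0.02 in these comparisons. The genes called were 30.8% of the 13 in KO1, 15.4% in KO2, 7.69% together and 38.5% between KO1 and KO2, against 9.79%, 8.98%, 6.62% and 19.3% of all tested genes. The lists were chosen with earlier results of these data known, so nothing is read from these shares.

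Lactate handling held the gene that fell in both lines. Gm17509, opposite Emb, which encodes embigin, a partner protein of monocarboxylate transporters, had 133 ± 21.7 CPM in KO1, 123 ± 6.84 CPM in KO2 and 182 ± 5.84 CPM in WT. Its log2 fold change was -0.45 ± 0.12 in KO1 (edgeR adjusted p = 0.0145) and -0.56 ± 0.13 in KO2 (adjusted p = 0.00321). The KO1 call was lost when KO1 replicate 1 was left out (adjusted p = 0.293), when WT replicate 1 (0.0552) or WT replicate 2 (0.118) was left out, under scaling by library totals (0.0621) and with DESeq2 (0.257). The KO2 call was lost with DESeq2 (adjusted p = 0.106). Map3k15, opposite Pdha1, the E1 alpha subunit gene of pyruvate dehydrogenase, had 1572 ± 27.1 CPM in KO1, 1356 ± 39.2 CPM in KO2 and 1493 ± 144 CPM in WT. It differed between KO1 and KO2 (0.21 ± 0.06, adjusted p = 0.00981), a call lost with DESeq2 (adjusted p = 0.149). Against WT it was called in neither line (edgeR adjusted p = 0.499 in KO1 and 0.161 in KO2).

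Among regulators, Psmc3ip, opposite Mlx, the partner of the Mondo factors, rose in KO2 to 323 ± 7.72 CPM, against 182 ± 8.13 CPM in KO1 and 204 ± 1.82 CPM in WT. The log2 fold change was 0.66 ± 0.09 in KO2 (adjusted p = 8.10e-06), -0.17 ± 0.10 in KO1 (adjusted p = 0.363) and -0.83 ± 0.10 between KO1 and KO2 (adjusted p = 1.08e-07). Psmc3ip lies on chromosome 11, whose median in KO2 was 0.40. Gm17701, opposite 9630033F20Rik, the older name of Tigar, a fructose bisphosphatase gene, fell in KO1 to 141 ± 12.2 CPM, against 211 ± 13.8 CPM in WT, with 214 ± 0.661 CPM in KO2. The log2 fold change was -0.59 ± 0.11 in KO1 (adjusted p = 5.09e-04) and 0.02 ± 0.10 in KO2 (adjusted p = 0.936), and the lines differed (-0.61 ± 0.11, adjusted p = 1.60e-04). It lies on chromosome 6, where the median of tested genes was -0.42 in KO1 and -0.03 in KO2. The calls of Psmc3ip in KO2 and of Gm17701 in KO1, and those of both between the lines, held under every alternative tried. Gm15283, opposite Hif1a, the hypoxia-inducible factor gene, had 817 to 992 counts per library and was not called in KO1 (-0.07 ± 0.06, adjusted p = 0.563) or KO2 (-0.16 ± 0.06, adjusted p = 0.105); it was chosen after its values were seen.

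In the pentose phosphate list, 1110028C15Rik, opposite Rpe, the ribulose-phosphate epimerase gene, rose in KO1 to 66.0 ± 6.27 CPM, against 34.2 ± 2.29 CPM in WT, with 38.3 ± 6.26 CPM in KO2. The log2 fold change was 0.95 ± 0.20 in KO1 (adjusted p = 0.00162) and 0.16 ± 0.23 in KO2 (adjusted p = 0.745), and the lines differed (0.79 ± 0.20, adjusted p = 0.00425). Ikbkg, opposite G6pdx, the glucose-6-phosphate dehydrogenase gene that opens the pathway, fell in KO1 to 147 ± 1.90 CPM, against 189 ± 2.65 CPM in WT, and was not called in KO2 (-0.06 ± 0.11, adjusted p = 0.816). The KO1 call (-0.37 ± 0.11, adjusted p = 0.0335) was lost under 7 of 12 alternatives, and the lines did not differ at the threshold (-0.31 ± 0.11, adjusted p = 0.0538). Hcn3, opposite Pklr, the liver and red cell pyruvate kinase gene, differed between the lines only (1.71 ± 0.46, adjusted p = 0.00831). It had 15.3 CPM in KO1, 4.63 CPM in KO2 and 9.25 CPM in WT. The difference rested on 5 to 19 counts per library and was lost with DESeq2 (adjusted p = 0.170). Gm16059, opposite the casein kinase 1 epsilon gene Csnk1e, was not called in KO1 (0.14 ± 0.08, adjusted p = 0.365) or KO2 (0.02 ± 0.09, adjusted p = 0.936).

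**Figure D4:**
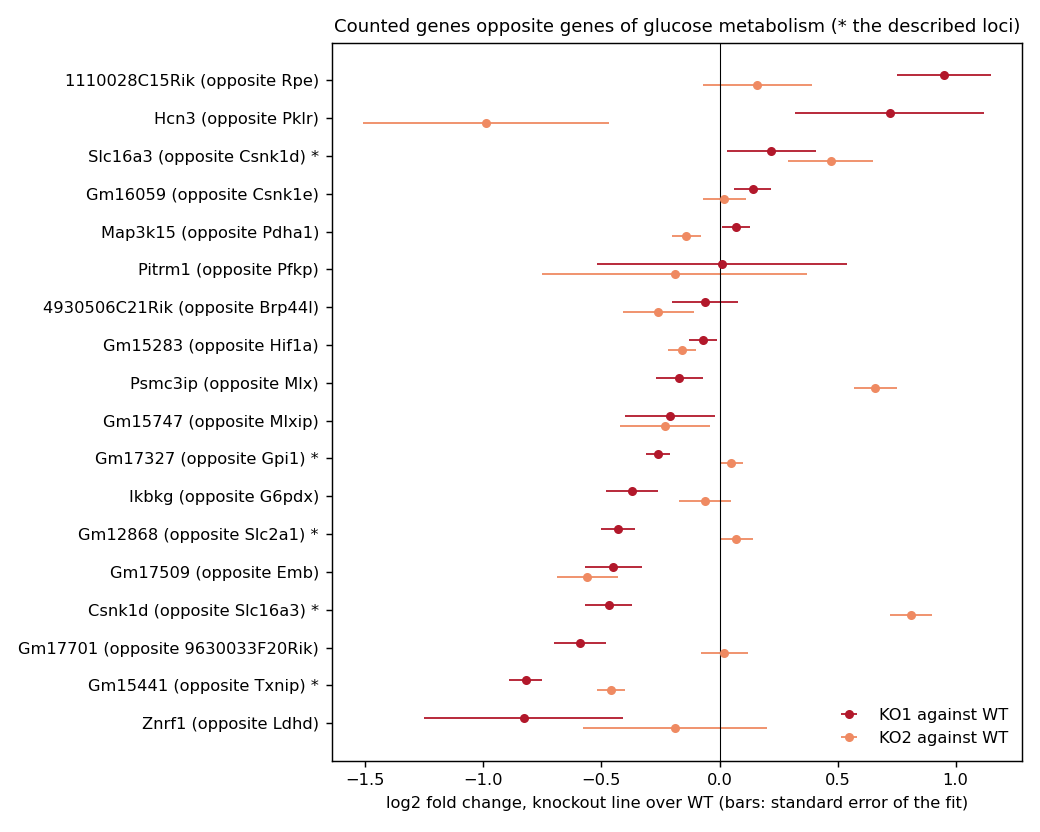
Log2 fold changes against WT, with standard errors, of the 18 tested genes counted opposite a gene of the pathway lists, members marked with an asterisk, with KO1 and KO2 side by side and the gene opposite given in the label. Gm15441 and Gm17509 lie below 0 in both lines, while Csnk1d and Psmc3ip lie above 0 in KO2 and below 0 in KO1.

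Read by the symbol of the counted gene, the lists held 101 genes besides the members, of which 32 were tested, most at low counts. In KO1, 0 of these rose and 2 fell, in KO2 1 rose and 2 fell, and between KO1 and KO2 2 were higher and 4 lower. These shares of 6.25%, 9.38% and 18.8% lay near the 9.79%, 8.98% and 19.3% of all tested genes, so the calls that follow are single genes and not a result about the lists. Slc2a3, which encodes the high-affinity transporter GLUT3, had 16 and 20 counts in KO1, 37 and 54 in KO2 and 31 and 41 in WT. It fell in KO1 (-1.06 ± 0.30, adjusted p = 0.0203) and not in KO2 (0.33 ± 0.25, adjusted p = 0.474), and the lines differed (-1.39 ± 0.29, adjusted p = 6.55e-04). Tpi1, the triose-phosphate isomerase gene, had 11 and 3 counts in KO1, 18 and 23 in KO2 and 4 and 8 in WT, and rose in KO2 (1.74 ± 0.48, adjusted p = 0.0193). Slc2a3 and Tpi1 both lie on chromosome 6. The KO1 call of Slc2a3 held under 8 of 12 alternatives and was lost with DESeq2 (adjusted p = 0.269). The KO2 call of Tpi1 held under 8 of 11 and was lost with DESeq2 (adjusted p = 0.316). Pfkp, a phosphofructokinase gene opposite Pitrm1, had 233 ± 11.1 CPM in KO1, 284 ± 7.31 CPM in KO2 and 288 ± 10.0 CPM in WT, and its fall in KO1 (-0.31 ± 0.09, adjusted p = 0.0299) was lost under 7 of 12 alternatives. Pdha1 fell in KO2 (-1.77 ± 0.45, adjusted p = 0.0101), at 13 and 31 counts in KO1, 4 and 10 in KO2 and 24 and 24 in WT. Gapdhs, the sperm-type glyceraldehyde-3-phosphate dehydrogenase gene, fell in KO2 (-0.74 ± 0.24, adjusted p = 0.0478), a call lost under 9 of 12 alternatives. Hif1a and Mycn, transcription factor genes that drive glycolytic genes, differed between KO1 and KO2 (-1.73 ± 0.45, adjusted p = 0.00550 and 1.32 ± 0.43, adjusted p = 0.0286) and were not called against WT. With DESeq2 the KO2 call of Pdha1 was lost (adjusted p = 0.168), as were the differences at Hif1a (adjusted p = 0.138) and Mycn (adjusted p = 0.304). By the strand reading above, the counts of these list genes do not give the level of the named gene.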

How the data were processed

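RNA of 6 libraries was analysed. The authors deposited raw counts per gene, 1 table per library. Per the file headers, paired fragments were counted over exons with featureCounts 2.0.1 at strand setting 1 on GENCODE mouse version 1 (mm9). The submitters' processing notes name STAR 2.5.4b and Bowtie2, GATK 4.1.4.0, Trim Galore 0.6.4, bedtools 2.92.2 and featureCounts 2.0.0, without saying what each did. Gene spans equalled that annotation for all 37310 genes.

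From these counts, edgeR 4.0.16 in R 4.3.3 (filterByExpr with a minimum count of 10, TMM, robust quasi-likelihood fit with a mean for each of 3 groups, Benjamini-Hochberg adjustment over all 5034 tested genes) gave log2 fold changes and calls. The fit left 3 residual degrees of freedom with a common biological coefficient of variation of 4.46%, and was tested on simulated data. Library totals ran from 1150089 to 1285487 counts. The gene opposite was the other-strand gene sharing the most exon sequence, at least 50 bases (bedtools 2.31.1). Counts were summarised by gene, so reads of overlapping genes cannot be split further. Promoter sequences are from RefSeq, and exon sequences from the mm9 genome.

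The members and lists were chosen with earlier results of these data known. From each list, up to 4 called genes by smallest adjusted p were named, or up to 2 of the most abundant where none was called. For the 2 counted members with the widest range of group means, the 3 most similar genes were named. Other genes named from the lists by this rule, Tkt, Taldo1, Csnk1g2 and Csnk1a1, were called in no comparison. Tested genes opposite a list gene that the rule did not select were also called in no comparison. These were Gm15283 opposite Hif1a, Gm15747 opposite Mlxip, 4930506C21Rik opposite Brp44l, Znrf1 opposite Ldhd and Pitrm1 opposite Pfkp. Alternatives were DESeq2 1.42.0, its size factors, library totals without TMM, 2 other count filters, an overlap of 200 bases, leaving out each library, and a replicate block. Replicate numbers did not pair the samples.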

Additional observations from a re-analysis of the deposited data

Results flagged for a closer look

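Csnk1d, opposite Slc16a3, moved in opposite directions in the lines, with every KO1 library below and every KO2 library above both WT libraries (log2 fold change -0.47 in KO1 and 0.81 in KO2). Csnk1d was called between KO1 and KO2 in the fit over all genes, but since it was chosen with these counts known, that call is not used as a test and no p is given.

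Other genes of the pathway lists differed between KO1 and KO2 in the edgeR fit, which is the test of the difference of their effects against the shared WT. Among genes counted opposite a list gene, the log2 fold change of KO1 over KO2 was 1.71 at Hcn3 (opposite Pklr), 0.79 at 1110028C15Rik (opposite Rpe), 0.21 at Map3k15 (opposite Pdha1), -0.61 at Gm17701 (opposite 9630033F20Rik) and -0.83 at Psmc3ip (opposite Mlx). Among genes of the lists by their own counts it was 1.58 at Pdha1, 1.32 at Mycn, -0.28 at Pfkp, -1.39 at Slc2a3, -1.59 at Tpi1 and -1.73 at Hif1a. By the strand reading, these own counts do not give the level of the named gene. With DESeq2 the differences between the lines at Gm17701, Psmc3ip and Slc2a3 were still called. Those at Hcn3, 1110028C15Rik, Map3k15, Pdha1, Mycn, Pfkp and Tpi1 were lost. The Hif1a difference (edgeR adjusted p = 0.00550) came with log2 fold changes of -0.72 ± 0.52 in KO1 and 1.02 ± 0.40 in KO2 that were not called against WT. It rested on 5 to 23 counts per library and was not called with DESeq2 (adjusted p = 0.138). At Gm15283, opposite Hif1a, the log2 fold change of KO1 over KO2 was 0.09 ± 0.06 (edgeR adjusted p = 0.320). The causes were not tested.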

How the results depend on the processing

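No called member changed direction under the alternatives. Of 352 alternative log2 fold changes of the members, 333 moved by less than the spread between replicates and 19 moved further. Across the alternatives the log2 fold change in KO1 ran from -0.85 to -0.72 at Gm15441, from -0.61 to -0.33 at Csnk1d, from -0.53 to -0.33 at Gm12868 and from -0.33 to -0.16 at Gm17327, and in KO2 from -0.50 to -0.44 at Gm15441 and from 0.70 to 0.92 at Csnk1d. Between KO1 and KO2 it ran from -0.39 to -0.22 at Gm15441, from -1.41 to -1.13 at Csnk1d, from -0.58 to -0.37 at Gm12868 and from -0.38 to -0.17 at Gm17327, with the values nearest 0 from library totals without TMM except at Csnk1d. With DESeq2, 179 genes were called in KO1, 144 in KO2, 95 with the lines together and 358 between KO1 and KO2. The list counts here include the members, unlike those in the text above. In the reported fit they were 3 in KO1, 4 in KO2, 0 together and 7 between the lines by counted symbol, and 8, 4, 2 and 9 by the gene opposite. With DESeq2 the pathway lists held 1 call by counted symbol in KO1, 1 in KO2 and 2 between the lines, and by the gene opposite 5 in KO1 and 1 with the lines together. With a minimum count of 30 there were 4 calls by the gene opposite with the lines together and 3 by counted symbol between the lines. Leaving out each library in turn gave 257 to 558 genes called in KO1, 263 to 395 in KO2, 171 to 333 together and 546 to 955 between the lines. The calls in KO1 numbered 257 without KO1 replicate 1, 280 without KO1 replicate 2, 321 without WT replicate 1 and 307 without WT replicate 2. Those in KO2 numbered 263 without WT replicate 1 and 272 without WT replicate 2, those together 171 and 172 without the same libraries, and those between the lines 546 and 609 without KO1 replicate 1 and 2. Leaving out a library also gave 0 to 3, 1 to 4, 0 to 3 and 4 to 7 list genes in these comparisons by counted symbol, and 4 to 8, 4 to 5, 1 to 3 and 6 to 9 by the gene opposite, and 27 to 32 of the 32 member signs were retained, the changes being at uncalled values. Of 23 named calls, 5 held under every alternative (Psmc3ip and Gm17701 in a line and between lines, and Slc2a3 between lines). Library totals without TMM moved the median of all genes to 0.10 in KO1, -0.05 in KO2 and 0.16 between the lines. Under that scaling 286 genes were called higher and 207 lower in KO1 (174 and 319 in the reported fit), 209 and 259 in KO2 (252 and 200), and 674 and 352 between the lines (399 and 572). The replicate numbers did not deviate together (correlations of -0.0383, 0.00601 and -0.0117), and a replicate block gave 482 calls in KO1, 416 in KO2, 320 together and 935 between the lines, with the list counts and all 32 member signs as in the fit without it. At 1 to 23 counts, the own-strand values of Slc2a1, Gpi1 and Txnip are limited by depth. The causes of these movements were not tested.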
